A study of Danio rerio with 4 samples.

Results

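The data described here are the stage differences of the response to en-pou5f3 in zebrafish embryos, that is, how far the ratio of en-pou5f3 over wild-type embryos at the 3-somite stage (3-ss) departed from the same ratio at 90% epiboly. For each probe set of a whole-genome array, the signals of the en-pou5f3 and the wild-type array were divided at either stage and put on the log2 scale, and the stage difference was the log2 ratio at 3-ss minus that at 90% epiboly. A stage difference of 1 therefore means that the ratio was 2-fold larger at 3-ss, and a negative value that it was smaller at 3-ss. A probe set entered if its signal reached 32.4 on all 4 arrays, which 10100 of the 15617 probe sets did after the 115 control sets of the manufacturer were left out. This floor is the 95th percentile of 80 signals of 20 of these control sets, which have no target in the zebrafish (median 6.45). Stage differences, not levels, were used to sort the members, and the members themselves were chosen by this floor. It leaves out genes whose signal nearly vanished on any array, and with them some of the strongest responses. At 90% epiboly *her3* had 1.29 in en-pou5f3 and 2171 in wild-type embryos, and *pax6b* had 4.91 and 404. Counts and list medians below do not include such genes.

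The 4 groups were en-pou5f3 embryos at 3-ss, wild-type embryos at 3-ss, en-pou5f3 embryos at 90% epiboly and wild-type embryos at 90% epiboly, with 1 array each. The en-pou5f3 embryos were transgenic offspring of hemizygous fish crossed with wild-type fish of the RW strain, and carried a fusion of the Engrailed repressor domain with Pou5f3 under a heat shock promoter, which is not limited to a chosen tissue. All 4 groups, wild-type embryos included, were raised at 25°C, heated to 37°C for 60 min at their stage and left to develop for 30 min more. The stage names used here are those of the heating, and RNA was taken after these 30 min, from embryos past the named stage. RNA of individually genotyped embryos was pooled by genotype, and 250 ng of total RNA entered each array. With 1 pool and 1 array per group there is no replicate error, and no p-value can be given: every difference below compares 4 arrays. The supplementary tables head the signal columns by heat shock without and with, and the supplementary methods speak of more arrays than these 4. The labels, which name 4 samples of 2 genotypes, were followed here, and whether a column stands for more than 1 hybridization is not given in the sources used here. The array carried 1 probe set for pou5f3 itself, whose signal was 2138 in en-pou5f3 and 1277 in wild-type embryos at 3-ss, and 8284 in en-pou5f3 and 5473 in wild-type embryos at 90% epiboly. It was higher in the en-pou5f3 array at both stages, with log2 ratios of 0.74 at 3-ss and 0.60 at 90% epiboly. Which part of the transcript its probes read is not given in the sources used here. Signals at or above the floor made up 71.3% to 74.4% of the probe sets of each array, and every array had been scaled to the same trimmed mean signal.

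Pou5f3 is the zebrafish POU-domain factor related to mammalian Oct4. It acts with SoxB1 factors in the blastula and gastrula to activate early genes and to hold back genes of later differentiation, and it is later needed in the neural plate for the midbrain-hindbrain boundary. The Engrailed fusion turns the protein into a repressor, so that it opposes the activating function of the endogenous factor. Between 90% epiboly and 3-ss the embryo passes from the end of gastrulation to the first somites, while the neural plate is divided into fore-, mid- and hindbrain and the first neurons are set aside.

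Most responses hardly differed between the stages. The median stage difference over the 10100 members was -0.02, its quartiles were -0.25 and 0.22, and the whole range ran from -3.50 (*sox9b*) to 4.58 (*wu:fe14d06*). At 2-fold or more the ratio differed for 450 probe sets, 4.46% of the members, with 235 (2.33%) larger and 215 (2.13%) smaller at 3-ss. Counted by the brightest probe set of each gene, 265 of 6663 genes passed 2-fold (3.98%), 131 of them with a larger ratio at 3-ss (1.97%) and 134 with a smaller one (2.01%). Values lay on both sides of the threshold without a gap, at 1.003 inside and 0.9996 outside on the positive side, and at -1.0002 inside and -0.9965 outside on the negative side. The 450 probe sets were divided by where the larger ratio stood. In 203 the response faded, being larger in size at 90% epiboly than at 3-ss (111 lower and 92 higher in en-pou5f3 embryos). In 197 it grew, being larger in size at 3-ss (98 lower and 99 higher). In 50 it turned, with opposite ratios of more than 1.5-fold at the stages, 25 in each direction. Each stage had its own embryos, heated at that stage, so these names compare 2 separate inductions. They do not follow the same embryos over time. A probe set of the fading or growing classes whose 2 ratios were opposite therefore lies within 1.5-fold of wild-type at its weaker stage by this rule. Sorting on a 2-fold stage difference also favours a small or opposite ratio at the weaker stage. Counts of such ratios in the fading and growing classes are therefore descriptions only. A further 52 probe sets passed 2-fold in the same direction at both stages with a stage difference under 0.5, and are called holding. Of the 450, 336 carry a gene name and 114 do not.

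**Figure D1:**
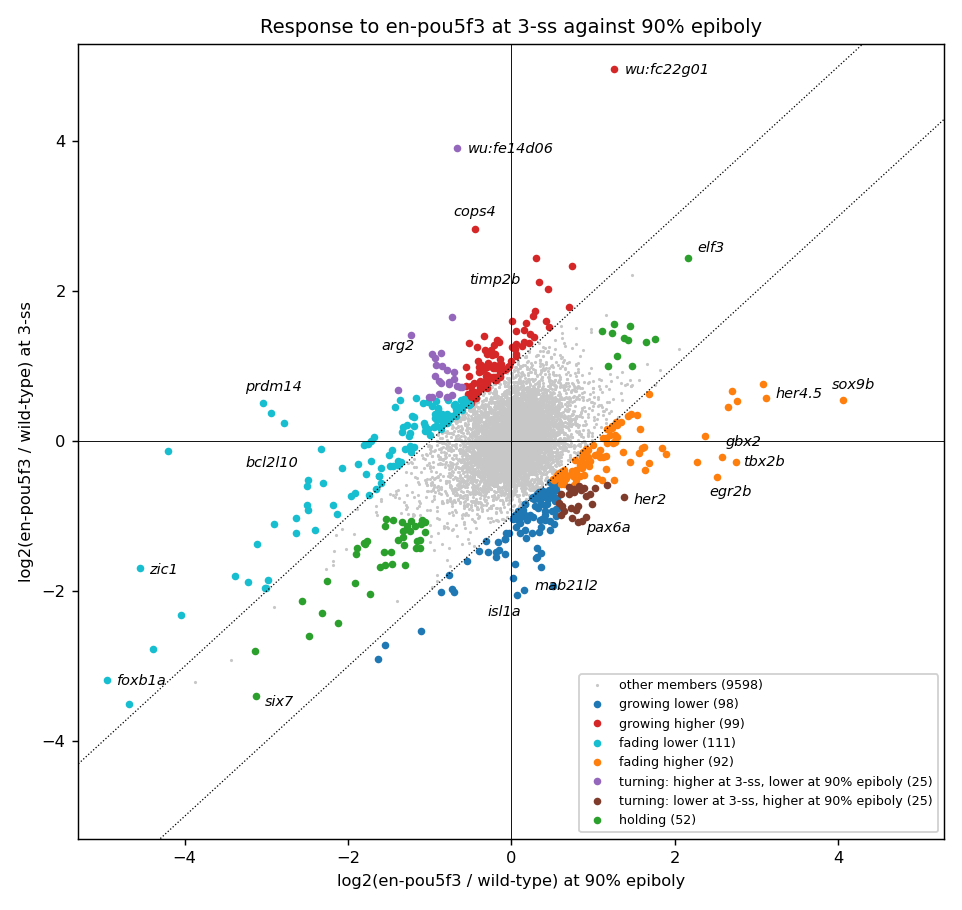
Each point is 1 of the 10100 probe sets, with its log2 ratio (en-pou5f3 over wild-type) at 90% epiboly on the horizontal and at 3-ss on the vertical axis; dotted lines mark stage differences of 1 and -1. Fading responses lie nearer to the horizontal than to the vertical axis (*sox9b* 4.05 at 90% epiboly), and growing ones nearer to the vertical axis (*wu:fc22g01* 4.97 at 3-ss). Some, such as *foxb1a*, lie far from both axes, and the grey points belong to no class.

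The only error that these arrays contain is that between probe sets of the same gene, which covers the array but no variation between embryos. Over 959 genes with several member probe sets the stage difference had a pooled SD of 0.40, against 0.33 for the log2 ratio at 3-ss and 0.27 for that at 90% epiboly. The spread of the stage difference also depended on the signal. Its SD was 0.626 in the dimmest of 5 equal parts of the members, where 9.21% passed 2-fold, and 0.282 in the brightest of them, where 0.941% did. Among the 7593 members with signals of 100 or more on all 4 arrays, 183 (2.41%) passed. Where a gene had several probe sets and the most extreme of them passed 2-fold, the others often disagreed. Of 45 such genes with a positive difference all other sets passed 2-fold in 6, another set passed 1.5-fold the same way in 15, and another had the opposite sign in 20. Of 40 with a negative difference these counts were 4, 15 and 12. A single dim probe set past 2-fold is therefore given below with the other probe sets of its gene.

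Genes of the hindbrain, the plate border and the Notch pathway were among the leading members of the fading higher class. Signals of this class were higher in en-pou5f3 than in wild-type embryos at 90% epiboly. At 3-ss 68 of its 92 probe sets were not higher, and of the 24 that were, 21 lay within 1.5-fold of wild-type. These counts follow in part from the sorting. *sox9b*, which encodes a Sox factor of the neural crest and placodes, had signals of 3109 in en-pou5f3 and 2119 in wild-type embryos at 3-ss, and 1547 in en-pou5f3 and 93.2 in wild-type embryos at 90% epiboly. Its ratio was 1.47-fold at 3-ss and 16.6-fold at 90% epiboly, a stage difference of -3.50. The wild-type array at 90% epiboly alone was low, and the other 3 arrays stood far above it. A second, dim set of *sox9b* was left out because its wild-type signal at 90% epiboly was under the floor (14.1, en-pou5f3 38.7). At 3-ss this second set was still higher in en-pou5f3 embryos, with 74.9 against 34.9 in wild-type embryos. Because whole embryos were pooled, more cells with a transcript and more transcript per cell cannot be told apart in this or any value below.

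*tbx2b*, which encodes a T-box factor of the dorsal retina and other BMP-responsive tissues, showed the same arrangement with signals of 657 in en-pou5f3 and 797 in wild-type embryos at 3-ss, and 755 in en-pou5f3 and 112 in wild-type embryos at 90% epiboly. *egr2b* (krox20), the regulator of rhombomeres 3 and 5, followed with 671 in en-pou5f3 and 929 in wild-type embryos at 3-ss, and 700.0 in en-pou5f3 and 123 in wild-type embryos at 90% epiboly. For both genes 3 of the 4 signals lay close together and the wild-type signal at 90% epiboly stood below them, with stage differences of -3.03 and -2.98. *gbx2*, which marks the anterior hindbrain side of the midbrain-hindbrain boundary, had 553 in en-pou5f3 and 637 in wild-type embryos at 3-ss, and 1220.5 in en-pou5f3 and 205 in wild-type embryos at 90% epiboly. Here the en-pou5f3 signal at 90% epiboly exceeded both signals at 3-ss, and the stage difference was -2.78. *mafba*, a bZIP gene of rhombomeres 5 and 6, had signals of 137 in en-pou5f3 and 153 in wild-type embryos at 3-ss, and 101 in en-pou5f3 and 34.3 in wild-type embryos at 90% epiboly. Its wild-type signal at 90% epiboly stood just above the floor, and the stage difference was -1.72.

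Notch target genes of the her4 family were among the members that faded. *her4.5*, one of the Hes-related repressors that Notch activates in neural progenitors, gave 606 in en-pou5f3 and 406 in wild-type embryos at 3-ss, and 1541 in en-pou5f3 and 177 in wild-type embryos at 90% epiboly. This gave log2 ratios of 0.58 at 3-ss and 3.12 at 90% epiboly. Both probe sets of *her4.2* followed, with stage differences of -2.02 and -2.32. The brighter one measured 237 in en-pou5f3 and 149 in wild-type embryos at 3-ss, and 424 in en-pou5f3 and 65.5 in wild-type embryos at 90% epiboly. The her4 genes lie in a cluster of near-identical copies, so their probe sets may share transcripts and are not separate observations. In this family the en-pou5f3 signal remained above the wild-type signal at 3-ss, and the en-pou5f3 signal itself was lower at 3-ss than at 90% epiboly.

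Some genes of retinoic acid and BMP signalling were in the fading higher class too. Of 16 measured retinoic acid genes 13 were under 2-fold, and of 27 BMP genes 21. *cyp26a1* and *bmp2b* of these pathways were in the fading lower class. *cyp26b1*, which encodes an enzyme that breaks down retinoic acid, had 2 probe sets with stage differences of -1.94 and -2.54. The brighter gave 239.9 in en-pou5f3 and 256 in wild-type embryos at 3-ss, and 329 in en-pou5f3 and 91.5 in wild-type embryos at 90% epiboly. *crabp2a*, a cytoplasmic retinoic acid binding protein gene, moved less at higher signals of 2036 in en-pou5f3 and 2347 in wild-type embryos at 3-ss, and 2781 in en-pou5f3 and 1311 in wild-type embryos at 90% epiboly. *gdf6a*, a BMP ligand gene of the dorsal ectoderm, had 474 in en-pou5f3 and 498 in wild-type embryos at 3-ss, and 359.8 in en-pou5f3 and 117 in wild-type embryos at 90% epiboly, and its stage difference was -1.69. The signals of these 3 genes were nearly equal in the genotypes at 3-ss. *id2b*, a helix-loop-helix inhibitor gene that BMP activates, had stage differences of -1.41 and -1.08 in its 2 probe sets, and *msx3*, a plate border homeobox gene, had -1.08 and -0.19. The second *msx3* set, the dimmer one, was under 2-fold.

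The remaining named members of the fading higher class had varied roles. A probe set that the study's tables name *cki* was the brightest of them, with 22604 in en-pou5f3 and 21538 in wild-type embryos at 3-ss, and 11549 in en-pou5f3 and 2242 in wild-type embryos at 90% epiboly. *sqstm1*, the gene of the autophagy receptor p62, had 1029 in en-pou5f3 and 1257 in wild-type embryos at 3-ss, and 742 in en-pou5f3 and 230.4 in wild-type embryos at 90% epiboly, a stage difference of -1.98. *dusp2*, a MAP kinase phosphatase gene, was high in 1 array only, with 96.7 in en-pou5f3 and 117 in wild-type embryos at 3-ss, and 283 in en-pou5f3 and 104 in wild-type embryos at 90% epiboly. *dlx5a*, a homeobox gene of the anterior plate border, had a log2 ratio of -0.03 at 3-ss and 1.24 at 90% epiboly, and *neurod4*, a proneural gene, had -0.21 and 1.12 at these stages. *junba*, an AP-1 gene, lay at the threshold with a difference of -1.01, although its signals were 2505 in en-pou5f3 and 2085 in wild-type embryos at 3-ss, against 125 in en-pou5f3 and 51.4 in wild-type embryos at 90% epiboly. For *junba* the signals differed far more between the stages than between the genotypes at either stage. Each stage had its own pools and arrays, so stage, pool and heat treatment cannot be told apart in this. Under median centring or quantile normalization the stage difference of *junba* lay just under 2-fold.

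**Figure D2:**
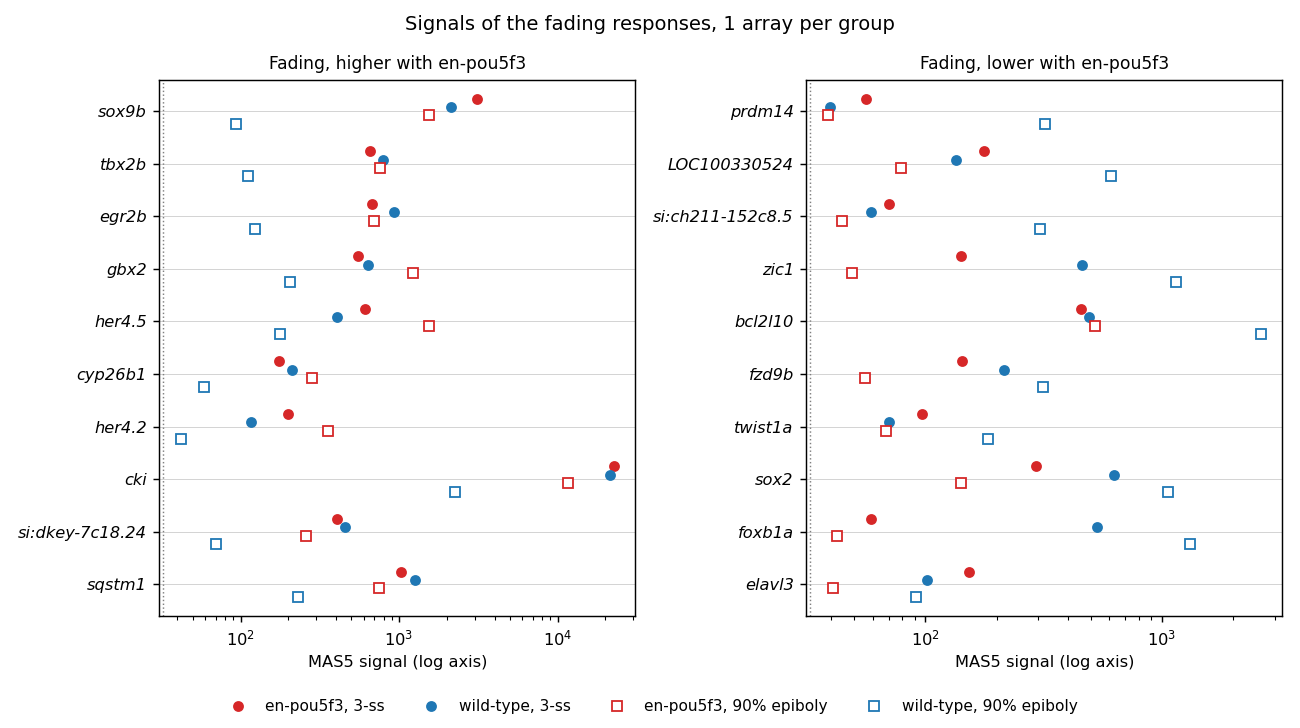
MAS5 signals (horizontal log axis) of the 10 named genes with the largest stage differences in the fading higher class (left) and the fading lower class (right), 1 array per group; filled circles are 3-ss, open squares 90% epiboly, red en-pou5f3, blue wild-type, and the dotted line is the floor of 32.4. On the left the wild-type signal at 90% epiboly is the lowest of the 4 for every gene, as for *sox9b* at 93.2; on the right it is the highest, except for *elavl3*.

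Transcription factor genes of the anterior neural plate were among the leading members of the fading lower class. Signals of this class were lower in en-pou5f3 than in wild-type embryos at 90% epiboly. At 3-ss 60 of its 111 probe sets were not lower, and of the 51 that were, 27 lay within 1.5-fold of wild-type. Here too the sorting favours such counts. *zic1*, a zinc finger gene of the anterior neural plate and its border, had signals of 142 in en-pou5f3 and 459 in wild-type embryos at 3-ss, and 48.9 in en-pou5f3 and 1143 in wild-type embryos at 90% epiboly. It was lower in en-pou5f3 embryos at both stages, by 3.24-fold at 3-ss and 23.4-fold at 90% epiboly. *foxb1a*, a forkhead gene of the neural plate, had 58.7 in en-pou5f3 and 532 in wild-type embryos at 3-ss, and 42.4 in en-pou5f3 and 1312 in wild-type embryos at 90% epiboly. Its log2 ratio of -3.18 at 3-ss was among the lowest of that stage, so that *foxb1a* was far below wild-type at both stages. *otx1*, a homeobox gene of the fore- and midbrain, had 139 in en-pou5f3 and 944 in wild-type embryos at 3-ss, and 74.5 in en-pou5f3 and 1559 in wild-type embryos at 90% epiboly in its brighter probe set, and the stage differences of its 2 sets were 1.62 and 1.42.

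The SoxB1 gene *sox2*, a partner of Pou5f3 and a gene of neural progenitors, was measured by 2 probe sets that agreed. The brighter gave 803 in en-pou5f3 and 1447 in wild-type embryos at 3-ss, and 359.5 in en-pou5f3 and 2037 in wild-type embryos at 90% epiboly, a stage difference of 1.65, and the other gave 293 in en-pou5f3 and 629 in wild-type embryos at 3-ss, and 141 in en-pou5f3 and 1062 in wild-type embryos at 90% epiboly, a difference of 1.81. In both sets the en-pou5f3 signal was higher at 3-ss than at 90% epiboly while the wild-type signal was lower. *pax2a*, a paired-box gene of the midbrain-hindbrain boundary, had 371 in en-pou5f3 and 702 in wild-type embryos at 3-ss, and 127 in en-pou5f3 and 714 in wild-type embryos at 90% epiboly, with wild-type signals nearly level between the stages and a stage difference of 1.58. *foxd5*, an early neural plate gene, had 104 in en-pou5f3 and 382 in wild-type embryos at 3-ss, and 256 in en-pou5f3 and 2403 in wild-type embryos at 90% epiboly and a difference of 1.35. *sall4*, a zinc finger gene of pluripotent and progenitor cells, had 1345 in en-pou5f3 and 5204 in wild-type embryos at 3-ss, and 1061 in en-pou5f3 and 8586 in wild-type embryos at 90% epiboly in its bright probe set, and a difference of 1.06. A dim second set of *sall4* was different, at -0.80. *foxd3*, a gene of pluripotent cells and neural crest, had log2 ratios of -1.85 at 3-ss and -2.98 at 90% epiboly.

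Several genes that were lower in en-pou5f3 embryos at 90% epiboly lay within 1.5-fold of wild-type at 3-ss. *zic2b* had 2669.8 in en-pou5f3 and 2263 in wild-type embryos at 3-ss, and 2993 in en-pou5f3 and 6268 in wild-type embryos at 90% epiboly, and *zic2a* had 1578 in en-pou5f3 and 1969.8 in wild-type embryos at 3-ss, and 1715 in en-pou5f3 and 4501 in wild-type embryos at 90% epiboly, so that both zic2 genes stood within 1.5-fold of wild-type at 3-ss. *cyp26a1*, the retinoic acid degrading enzyme gene of the anterior neural plate and tail, had 2413 in en-pou5f3 and 2142 in wild-type embryos at 3-ss, and 2487 in en-pou5f3 and 5027 in wild-type embryos at 90% epiboly. The en-pou5f3 signals of these 3 genes were nearly level across the stages, and the wild-type signals were lower at 3-ss. *bcl2l10*, a Bcl2-related regulator of apoptosis, gave 456 in en-pou5f3 and 490.1 in wild-type embryos at 3-ss, and 522 in en-pou5f3 and 2616 in wild-type embryos at 90% epiboly. *prdm14*, a PR-domain gene tied to pluripotency and germ cells in the mouse, gave 56.4 in en-pou5f3 and 39.6 in wild-type embryos at 3-ss, and 38.8 in en-pou5f3 and 319 in wild-type embryos at 90% epiboly. In *prdm14* and *bcl2l10* the wild-type embryos at 90% epiboly alone had a high signal, and the other 3 *prdm14* signals lay close to the floor. *LOC100330524*, a locus with no described role here, showed the same, with 176 in en-pou5f3 and 135 in wild-type embryos at 3-ss, and 79.1 in en-pou5f3 and 609 in wild-type embryos at 90% epiboly, as did *si:ch211-152c8.5*. The largest value of the class, 4.07, belonged to a probe set without a gene name, which had signals of 48.5 in en-pou5f3 and 52.9 in wild-type embryos at 3-ss and 36.4 in en-pou5f3 and 669 in wild-type embryos at 90% epiboly.

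Ligands, receptors and secreted proteins were found among the fading lower members as well. *bmp2b*, the ventralizing BMP ligand gene, had 428 in en-pou5f3 and 548 in wild-type embryos at 3-ss, and 268 in en-pou5f3 and 1131 in wild-type embryos at 90% epiboly, a stage difference of 1.72. *tdgf1* (one-eyed pinhead), the co-receptor gene needed for Nodal signalling, had 200.3 in en-pou5f3 and 519 in wild-type embryos at 3-ss, and 147 in en-pou5f3 and 1272 in wild-type embryos at 90% epiboly, and its log2 ratio of -1.37 at 3-ss still passed 2-fold. *fzd9b*, a Wnt receptor gene, had differences of 1.91 and 1.04 in its 2 probe sets. The Wnt antagonist gene *dkk1b* had a difference of 1.16, the chemokine receptor gene *cxcr4a* one of 1.17, and the Nodal-related ligand gene *gdf3* had log2 ratios of 0.29 at 3-ss and -0.91 at 90% epiboly. In all 4 of *dkk1b*, *cxcr4a*, *gdf3* and *bmp2b* the log2 ratio at 3-ss was under 1 in size. The yolk lipoprotein genes were the brightest of the class. *apoa2* had 11997 in en-pou5f3 and 14809 in wild-type embryos at 3-ss, and 1447 in en-pou5f3 and 5330.4 in wild-type embryos at 90% epiboly, and *apobb.1* had 11767 in en-pou5f3 and 12615 in wild-type embryos at 3-ss, and 2241 in en-pou5f3 and 5514 in wild-type embryos at 90% epiboly. Their signals were higher at 3-ss in both genotypes, and both ratios lay within 1.5-fold of 1 there.

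Neuronal and neural patterning genes were among the leading members of the growing lower class, whose signals were lower in en-pou5f3 embryos at 3-ss. At 90% epiboly 20 of its 98 probe sets were lower too, 13 of them by less than 1.5-fold, counts that the sorting in part fixes. *isl1a*, a LIM homeobox gene of the first motor and sensory neurons, had 92.7 in en-pou5f3 and 383 in wild-type embryos at 3-ss, and 127 in en-pou5f3 and 122 in wild-type embryos at 90% epiboly, a stage difference of -2.11. *mab21l2*, a gene of the eye field and midbrain, had 86.8 in en-pou5f3 and 343 in wild-type embryos at 3-ss, and 62.9 in en-pou5f3 and 56.6 in wild-type embryos at 90% epiboly, a difference of -2.13. For both genes the wild-type array at 3-ss alone was high. *sox21a*, a SoxB2 gene of the neural plate, had 163 in en-pou5f3 and 455 in wild-type embryos at 3-ss, and 240.0 in en-pou5f3 and 187 in wild-type embryos at 90% epiboly, and *nradd*, a gene related to the p75 neurotrophin receptor, had 289 in en-pou5f3 and 1019.6 in wild-type embryos at 3-ss, and 291 in en-pou5f3 and 286 in wild-type embryos at 90% epiboly. In *sox21a* the en-pou5f3 signal was lower at 3-ss, and in *nradd* it was level between the stages.

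*elavl3* (HuC), the pan-neuronal RNA-binding protein gene, fell into 2 classes by its probe sets. The brightest gave 257 in en-pou5f3 and 597 in wild-type embryos at 3-ss, and 249 in en-pou5f3 and 197 in wild-type embryos at 90% epiboly, a difference of -1.56 in the growing lower class, and the next gave 153 in en-pou5f3 and 102 in wild-type embryos at 3-ss, and 40.8 in en-pou5f3 and 91.3 in wild-type embryos at 90% epiboly, a difference of 1.75 in the fading lower class. Another set near the floor had -0.57, and no single direction can be given for *elavl3*. *olig3*, a helix-loop-helix gene of the dorsal neural tube, had 129 in en-pou5f3 and 357 in wild-type embryos at 3-ss, and 557 in en-pou5f3 and 636 in wild-type embryos at 90% epiboly, with its lowest signal in en-pou5f3 embryos at 3-ss. *emx3*, a telencephalon gene, had 75.1 in en-pou5f3 and 149.8 in wild-type embryos at 3-ss, and 134 in en-pou5f3 and 91.8 in wild-type embryos at 90% epiboly, a difference of -1.55. *dlx4b*, a homeobox gene of the plate border, had a difference of -1.39, and the apolipoprotein gene *apoa4a* one of -1.86, with wild-type signals of 311 at 3-ss and 42.1 at 90% epiboly. *her5*, a Notch-independent Hes-related gene that keeps the midbrain-hindbrain boundary free of neurons, was lower at both stages and more so at 3-ss, with 102 in en-pou5f3 and 762 in wild-type embryos at 3-ss, and 382 in en-pou5f3 and 1183 in wild-type embryos at 90% epiboly. On the log2 scale these are ratios of -2.90 at 3-ss and -1.63 at 90% epiboly.

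Other growing lower members had general cell functions. *hsp90b1*, the chaperone of the endoplasmic reticulum, had 1143 in en-pou5f3 and 2675 in wild-type embryos at 3-ss, and 1505 in en-pou5f3 and 1402 in wild-type embryos at 90% epiboly, a difference of -1.33. The Myc gene *myca* had log2 ratios of -1.48 at 3-ss and -0.29 at 90% epiboly. For some the call rested on 1 dim probe set. *pgam5*, a mitochondrial phosphatase gene, had a difference of -2.44 in a set with signals of 43.4 in en-pou5f3 and 165 in wild-type embryos at 3-ss, and 163 in en-pou5f3 and 114 in wild-type embryos at 90% epiboly, whereas its brighter set had -0.12. Likewise *nob1*, a ribosome assembly gene, had -1.65 in the dimmer set and -0.34 in the brighter one. *zgc:111983* passed 2-fold in both of its sets, at -1.40 and -1.74.

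The growing higher class, whose signals were higher in en-pou5f3 embryos at 3-ss, was led by a probe set known only by a clone number. At 90% epiboly 24 of its 99 probe sets were higher too, 21 of them by less than 1.5-fold, which again follows in part from the sorting. *wu:fc22g01* had 1447 in en-pou5f3 and 46.3 in wild-type embryos at 3-ss, and 508 in en-pou5f3 and 213 in wild-type embryos at 90% epiboly, which gave ratios of 31.2-fold at 3-ss and 2.39-fold at 90% epiboly and a stage difference of 3.71. Among the genes with a known role, *timp2b*, an inhibitor of matrix metalloproteinases, was measured by 2 probe sets that agreed. The brighter gave 744 in en-pou5f3 and 233 in wild-type embryos at 3-ss, and 124 in en-pou5f3 and 103 in wild-type embryos at 90% epiboly, a difference of 1.41, and the other had a difference of 1.58. The *timp2b* signal was higher at 3-ss than at 90% epiboly in both genotypes, and further so in en-pou5f3 embryos. *socs3a*, a feedback inhibitor gene of cytokine signalling, had 749 in en-pou5f3 and 340.1 in wild-type embryos at 3-ss, and 173 in en-pou5f3 and 166 in wild-type embryos at 90% epiboly, a difference of 1.08. *grnas*, a granulin gene, had 160.5 in en-pou5f3 and 52.6 in wild-type embryos at 3-ss, and 112 in en-pou5f3 and 111 in wild-type embryos at 90% epiboly, and *irf7*, an interferon regulatory factor gene, had 92.9 in en-pou5f3 and 35.2 in wild-type embryos at 3-ss, and 49.7 in en-pou5f3 and 62.9 in wild-type embryos at 90% epiboly. In *grnas* and *irf7* the lowest signal was that of wild-type embryos at 3-ss.

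For other genes of this class the probe sets disagreed. *cops4*, the gene of a COP9 signalosome subunit, had 3 member probe sets. The one in the growing higher class gave 374 in en-pou5f3 and 52.6 in wild-type embryos at 3-ss, and 627 in en-pou5f3 and 853 in wild-type embryos at 90% epiboly, a difference of 3.28. The brightest was level at 0.06, and the dimmest had -0.98, so that no direction holds for *cops4* as a whole. *laptm4b*, a lysosomal membrane protein gene, had 1324 in en-pou5f3 and 304 in wild-type embryos at 3-ss, and 147 in en-pou5f3 and 116 in wild-type embryos at 90% epiboly in 1 set, a difference of 1.78, while its brighter set had -0.21.

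In 25 probe sets the response turned so that the signal was lower in en-pou5f3 embryos at 3-ss and higher at 90% epiboly. *her2*, a Notch-responsive Hes-related gene, had 414 in en-pou5f3 and 691 in wild-type embryos at 3-ss, and 883 in en-pou5f3 and 339 in wild-type embryos at 90% epiboly. The log2 ratios were -0.74 at 3-ss and 1.38 at 90% epiboly, and the largest and smallest of its 4 signals both belonged to 90% epiboly. *her15.2*, another gene of this family, had 402 in en-pou5f3 and 622 in wild-type embryos at 3-ss, and 959 in en-pou5f3 and 519.6 in wild-type embryos at 90% epiboly, a stage difference of -1.51. *hoxa2b*, the anterior-most Hox gene of the hindbrain, had 131 in en-pou5f3 and 277 in wild-type embryos at 3-ss, and 66.9 in en-pou5f3 and 38.1 in wild-type embryos at 90% epiboly, with a signal just above the floor in wild-type embryos at 90% epiboly. *pax6a*, the paired-box gene of eye, forebrain and hindbrain, had 416 in en-pou5f3 and 845 in wild-type embryos at 3-ss, and 358 in en-pou5f3 and 215 in wild-type embryos at 90% epiboly. Both *hoxa2b* and *pax6a* had their highest signal in wild-type embryos at 3-ss, and their differences were -1.89 and -1.76.

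Genes outside neural patterning turned in this direction too. *insb*, a preproinsulin gene, had 66.9 in en-pou5f3 and 126 in wild-type embryos at 3-ss, and 308 in en-pou5f3 and 179 in wild-type embryos at 90% epiboly, and *gcnt4a*, a glycosyltransferase gene, had 312 in en-pou5f3 and 559 in wild-type embryos at 3-ss, and 822 in en-pou5f3 and 414 in wild-type embryos at 90% epiboly. *echs1*, a gene of mitochondrial fatty acid oxidation, had 245 in en-pou5f3 and 447 in wild-type embryos at 3-ss, and 675 in en-pou5f3 and 383 in wild-type embryos at 90% epiboly. In these 3 genes the en-pou5f3 embryos held the lowest signal of the 4 at 3-ss and the highest at 90% epiboly. *pdha1a*, a pyruvate dehydrogenase subunit gene, had a difference of -1.93 in a dim set and -0.74 in the brighter one.

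The other 25 probe sets were higher in en-pou5f3 embryos at 3-ss and lower at 90% epiboly. *wu:fe14d06* had the largest stage difference of all members, 4.58, with 1967 in en-pou5f3 and 131 in wild-type embryos at 3-ss, and 354 in en-pou5f3 and 564 in wild-type embryos at 90% epiboly. *c6.2* had 302 in en-pou5f3 and 113 in wild-type embryos at 3-ss, and 78.4 in en-pou5f3 and 184 in wild-type embryos at 90% epiboly, a difference of 2.65. *arg2*, an arginase gene, had 575 in en-pou5f3 and 256 in wild-type embryos at 3-ss, and 125 in en-pou5f3 and 246 in wild-type embryos at 90% epiboly, with wild-type signals nearly level between the stages and the en-pou5f3 signals on either side of them. *lgals3b*, a galectin gene, had 1003 in en-pou5f3 and 519 in wild-type embryos at 3-ss, and 288 in en-pou5f3 and 497 in wild-type embryos at 90% epiboly, the same arrangement, and a difference of 1.74. Of the other named genes in this direction, *ogt.1*, *ttc4* and *sgms1a* turned in 1 dim probe set each, with 1.95, 1.85 and 1.80, while their brighter sets had -0.18, 0.48 and, in the 2 of *sgms1a*, 0.23 and -0.03. When turning was made to need 2-fold at both stages, 1 probe set remained in this direction and 0 in the other.

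**Figure D3:**
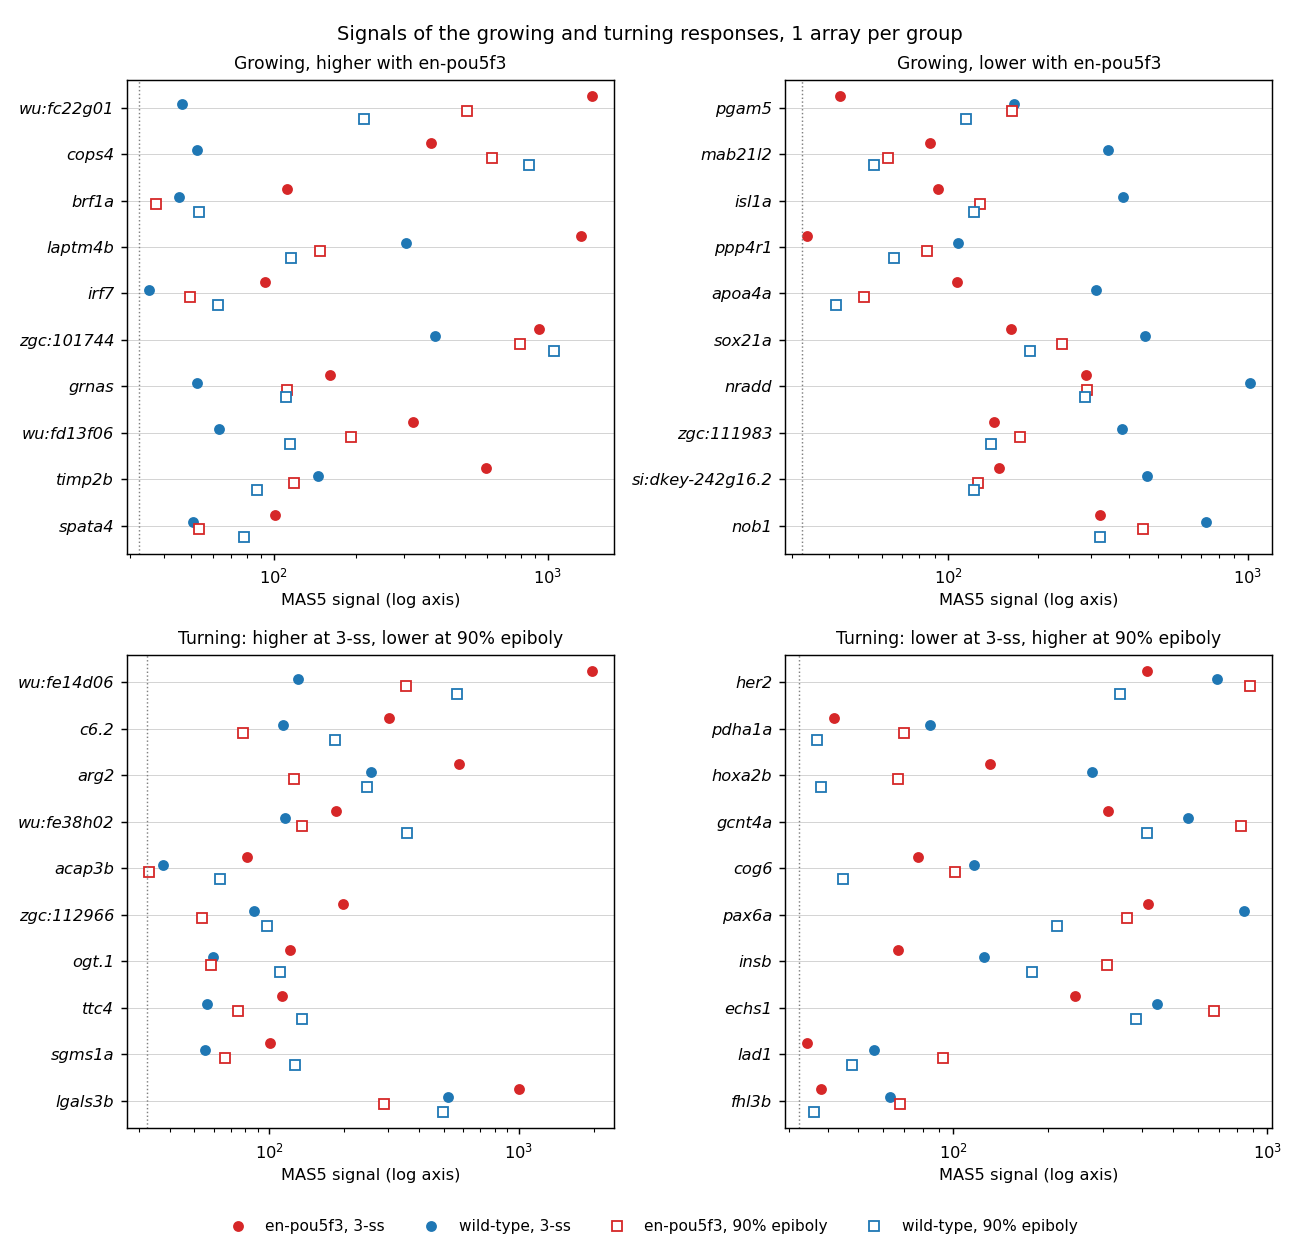
MAS5 signals (horizontal log axis) of the 10 named genes with the largest stage differences in each of the 2 growing classes (top) and the 2 turning classes (bottom), 1 array per group, with symbols as in the plot of the fading genes. In the top right panel the wild-type signal at 3-ss is the highest of the 4, as for *isl1a* at 383, and in the top left *wu:fc22g01* has its highest signal in en-pou5f3 embryos at 3-ss.

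The holding class shows which responses were alike at the 2 stages. Of its 52 probe sets, 40 were lower and 12 higher in en-pou5f3 embryos. *six7*, a homeobox gene of the eye and anterior neural plate, had 42.3 in en-pou5f3 and 443 in wild-type embryos at 3-ss, and 174 in en-pou5f3 and 1523 in wild-type embryos at 90% epiboly, with log2 ratios of -3.39 at 3-ss and -3.13 at 90% epiboly. *fgf8a*, the FGF ligand gene of the midbrain-hindbrain boundary, had 108 in en-pou5f3 and 529 in wild-type embryos at 3-ss, and 219 in en-pou5f3 and 1092 in wild-type embryos at 90% epiboly, a stage difference of 0.03. *chrd*, the BMP antagonist gene chordin, also had 0.03, and *tfap2a*, a gene of the plate border and epidermis, had 0.44 at signals of 838 in en-pou5f3 and 3653 in wild-type embryos at 3-ss, and 797 in en-pou5f3 and 4721 in wild-type embryos at 90% epiboly. *rx3*, the eye field gene, was reduced about equally, with log2 ratios of -2.03 at 3-ss and -1.73 at 90% epiboly. *elf3*, an epithelial Ets factor gene, held in the higher direction, with 474 in en-pou5f3 and 86.8 in wild-type embryos at 3-ss, and 243 in en-pou5f3 and 54.3 in wild-type embryos at 90% epiboly. Holding does not mean that the levels stood still: the *six7*, *fgf8a* and *chrd* signals were lower at 3-ss than at 90% epiboly in both genotypes.

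A stage difference is by arithmetic the change of the en-pou5f3 signal between the stages minus that of the wild-type signal, so the 2 changes were set side by side for each class. Because the classes were sorted on the difference of these changes, large and opposite changes follow in part from the sorting, and the shares over all members are printed as a description from which nothing is read. Over all members the en-pou5f3 change was the larger in 48.8% and the wild-type change in 51.2%. The signal was at least 2-fold higher at 3-ss in 6.71% of members in en-pou5f3 and 7.17% in wild-type embryos, and at least 2-fold lower in 3.25% in en-pou5f3 and 3.90% in wild-type embryos.

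In the fading higher class the en-pou5f3 change was the larger in 21 of 92 probe sets (22.8%), and the wild-type change in 71 (77.2%). The median log2 change, 3-ss over 90% epiboly, was -0.21 in en-pou5f3 and 1.24 in wild-type embryos. The wild-type signal was at least 2-fold higher at 3-ss in 55 of the 92 (59.8%). In 50 of the 92 (54.3%) the en-pou5f3 signal at 90% epiboly lay within 1.5-fold of the wild-type signal at 3-ss. *tbx2b*, *egr2b* and *sox9b* were among them, and *gbx2* and *her4.5* were not. Over all members 72.0% did so. This share was 44.1% in the fading lower, 46.9% in the growing lower and 54.5% in the growing higher class, and 64% in either turning class. In the fading lower class the en-pou5f3 change was the larger in 60 of 111 probe sets (54.1%), with medians of 0.68 in en-pou5f3 and -0.66 in wild-type embryos. The en-pou5f3 signal was at least 2-fold higher at 3-ss in 37 (33.3%), as in *sox2* and *pax2a*, and the wild-type signal at least 2-fold lower in 39 (35.1%), as in *zic2b* and *prdm14*.

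In the growing lower class the wild-type change was the larger in 61 of 98 (62.2%), with medians of -0.40 in en-pou5f3 and 0.79 in wild-type embryos. In the growing higher class the en-pou5f3 change was the larger in 53 of 99 (53.5%), near the share over all members, with medians of 0.74 in en-pou5f3 and -0.57 in wild-type embryos. In the turning probe sets that were higher at 3-ss the medians were 0.82 in en-pou5f3 and -0.87 in wild-type embryos, and in those that were lower at 3-ss they were -0.55 in en-pou5f3 and 1.06 in wild-type embryos. Holding probe sets had medians of -0.20 in en-pou5f3 and -0.29 in wild-type embryos, and the closeness of these follows from choosing them for a small stage difference.

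**Figure D4:**
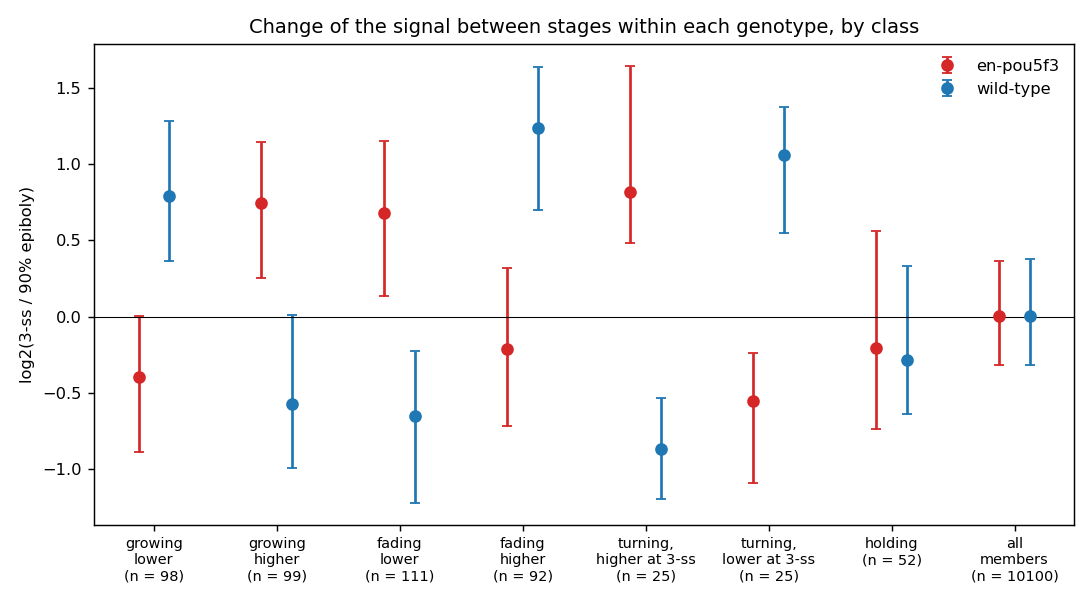
Median log2 change of the signal, 3-ss over 90% epiboly (vertical axis), in en-pou5f3 (red) and wild-type (blue) embryos for each class and for all members; bars run between the quartiles over probe sets and n is the number of probe sets. The fading higher class has a wild-type median of 1.24 beside an en-pou5f3 median of -0.21, and the fading lower class has medians of 0.68 in en-pou5f3 and -0.66 in wild-type embryos; the classes were sorted on the difference of the 2 changes.

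Gene lists were then read by the brightest probe set of each gene, beside the 3.98% of all genes that passed 2-fold and their median of -0.03. List genes left out by the floor are not counted. These were 13 of 41 on the array in the forebrain, midbrain and eye list, and 14 of 43 in the Hox list. The forebrain, midbrain and eye list held the most stage-dependent genes. Of its 28 measured genes, 7 had a larger ratio at 3-ss (*zic1*, *foxb1a*, *tdgf1*, *otx1*, *zic2b*, *lhx5* and *zic2a*, all fading lower) and 4 a smaller one (*mab21l2*, *sox21a*, *pax6a* and *emx3*), and 17 were under 2-fold. The list median was 0.05, and 0.22 when signals under the floor were set to it, and the list was reduced at both stages, with median log2 ratios of -1.27 at 3-ss and -1.19 at 90% epiboly. *lhx5*, a LIM homeobox gene of the forebrain, had 69.3 in en-pou5f3 and 157 in wild-type embryos at 3-ss, and 66.7 in en-pou5f3 and 353 in wild-type embryos at 90% epiboly. Of 25 genes of the hindbrain, 4 had a smaller ratio at 3-ss (*egr2b*, *cyp26b1*, *hoxa2b* and *mafba*) and 2 a larger one (*cyp26a1* and *mafbb*). The wild-type signal of this list was at least 2-fold higher at 3-ss in 12 of the 25, and over all member probe sets in 7.17%. *mafbb*, a second Maf gene of the hindbrain, moved opposite to *mafba*, with 618 in en-pou5f3 and 772 in wild-type embryos at 3-ss, and 55.8 in en-pou5f3 and 153 in wild-type embryos at 90% epiboly. Of 16 measured genes of the midbrain-hindbrain boundary, *pax2a* had a larger ratio and *gbx2* and *her5* a smaller one, and the median was 0.04. Another 9 genes of this list are on the array but were left out by the floor. In a set left out, the boundary gene *en2a* fell under the floor in en-pou5f3 embryos at 90% epiboly (22.8, wild-type 103). Its signals at 3-ss were 157 in en-pou5f3 and 211 in wild-type embryos, a stage difference of 1.23 or more. The paired-box gene *pax8* went the other way, at -1.20 or less, with signals mostly near the floor.

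In the Notch and proneural lists most genes past 2-fold had a smaller ratio at 3-ss, and in the neural progenitor list most had a larger one. Of 24 genes of the Notch pathway, 4 passed 2-fold, all smaller at 3-ss and all Hes-related (*her4.5*, *her2*, *her4.2* and *her15.2*), and 0 were larger. The sets of *her4.5* and *her4.2* may share transcripts and are not separate observations. The list median was -0.20. Of 19 proneural and early neuron genes, 4 were smaller (*isl1a*, *elavl3* by its brightest set, *neurod4* and *olig3*) and *olig2*, a gene of motor neuron and oligodendrocyte progenitors, was larger at 1.25. Their median was -0.60, with median log2 ratios of -0.55 at 3-ss and 0.06 at 90% epiboly. This median moved to -0.25 when the probe sets of each gene were averaged, and to -0.19 when signals under the floor were set to it, which brought in more genes of the list. Of 13 SoxB and neural progenitor genes, 4 were larger (*sox2*, *foxd5*, *zic2a* and *sall4*) and *sox21a* was smaller. Of 5 measured Hes-related genes that do not depend on Notch, *her5* was smaller, and the median was -0.40, or -0.04 with signals under the floor set to it. The floor left out 1 more gene of this list. *her3*, far lower in en-pou5f3 embryos at both stages, is not a member and not among the 5. The SoxB1 gene *sox19b* stood just short of the threshold at -0.95. Of 29 Hox genes, 2 were smaller at 3-ss, *hoxa2b* and *hoxc3a*, and the median was -0.02.

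The neural crest, BMP and retinoic acid lists had genes past 2-fold in both directions. Of 23 neural crest and plate border genes, 5 were smaller at 3-ss (*sox9b*, *id2b*, *dlx4b*, *dlx5a* and *msx3*) and 3 larger (*twist1a*, *bmp2b* and *foxd3*). *twist1a*, a helix-loop-helix gene of mesenchyme, had 96.7 in en-pou5f3 and 70.29 in wild-type embryos at 3-ss, and 68.2 in en-pou5f3 and 184 in wild-type embryos at 90% epiboly, mostly near the floor. Of 27 genes of BMP signalling and its targets, 5 were smaller (*tbx2b*, *gdf6a*, *id2b*, *crabp2a* and *msx3*) and *bmp2b* was larger. Of 16 retinoic acid genes, *cyp26b1* and *crabp2a* were smaller and *cyp26a1* was larger. The Wnt and Nodal lists had 2 larger genes each and 0 smaller ones, namely *fzd9b* and *dkk1b* of 25, and *tdgf1* and *gdf3* of 9. None of 11 measured FGF genes passed 2-fold, although *fgfr3*, an FGF receptor gene, came close at -0.98. Another 8 FGF genes are on the array but were left out by the floor.

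**Figure D5:**
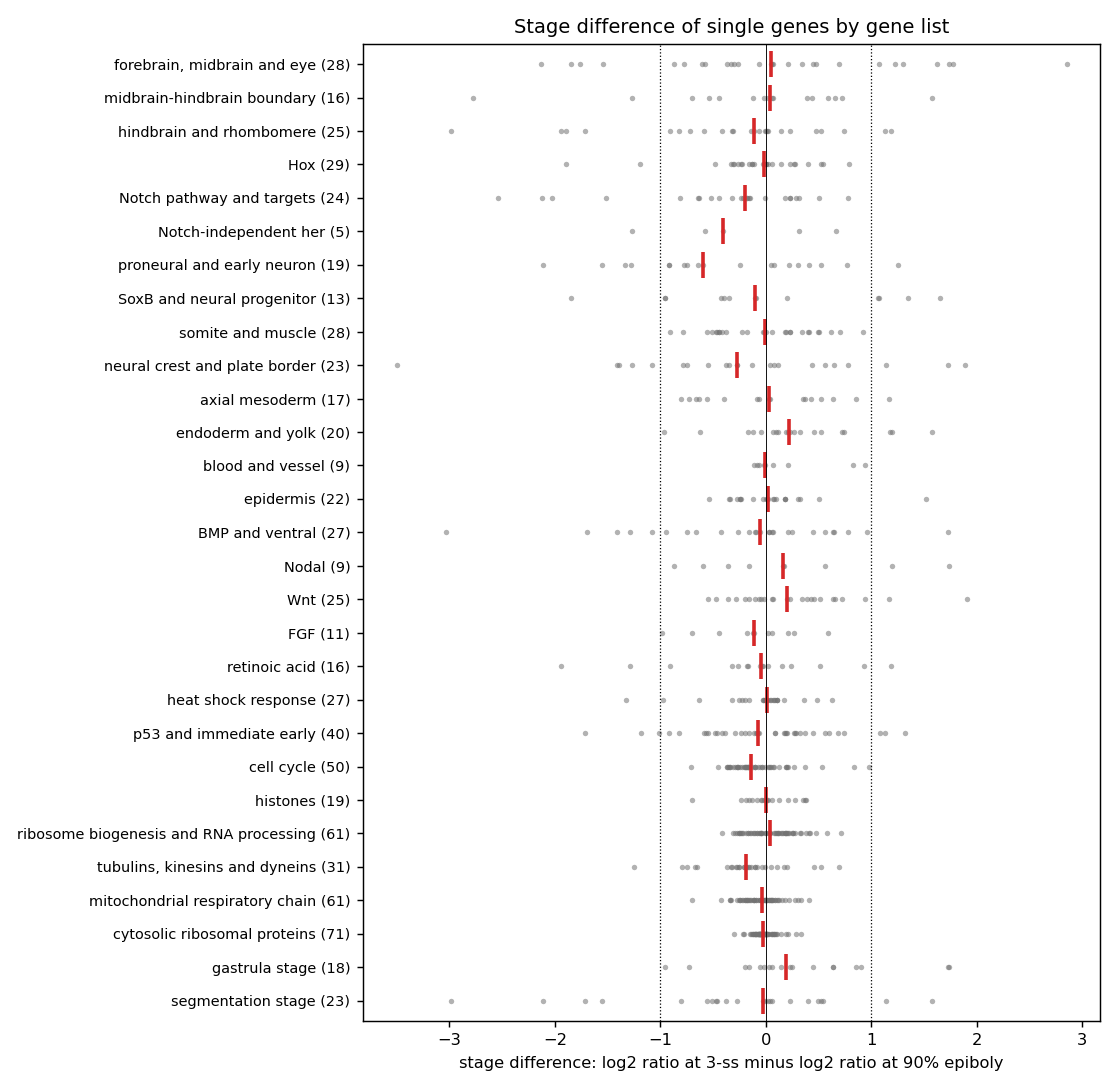
Stage difference (horizontal axis, log2 ratio at 3-ss minus that at 90% epiboly) of each measured gene, by its brightest probe set, in the 29 gene lists; red bars are list medians, dotted lines mark 1 and -1, and the number of measured genes follows each name. The 71 cytosolic ribosomal protein genes lie between -0.30 and 0.33, whereas the neural crest and plate border genes reach down to -3.50 (*sox9b*).

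Of the other tissue and cell function lists, the endoderm and yolk list and the p53 and immediate early list each had 15% of their genes past 2-fold, and the rest had 1 such gene or none. None of 28 somite and muscle genes passed 2-fold, with *fn1b* at 0.92 and *tbx6* at -0.90 nearest to it, and none of 9 measured blood and vessel genes. Another 10 blood and vessel genes are on the array but were left out by the floor, so little can be said of this list. In a set left out, *gata1a* had a stage difference of -1.36 or less, with signals mostly near or under the floor. Of 17 axial mesoderm genes *dkk1b* passed, and of 22 epidermal genes *agr1* at 1.52. Of 20 endoderm and yolk genes, *apoa2*, *apobb.1* and *cxcr4a* had larger ratios, and *foxa1*, a forkhead gene of endoderm and midline, stood at -0.97 and passed under quantile normalization (-1.11). Of 27 heat shock genes only *hsp90b1* passed, and the list median was 0.01. Of 40 p53-pathway and immediate early genes, 3 were larger (*gadd45ga*, *klf2a* and *socs3a*) and 3 smaller (*dusp2*, *myca* and *junba*). None of 50 cell cycle, 19 histone, 61 ribosome biogenesis, 61 respiratory chain and 71 ribosomal protein genes passed 2-fold. *top2a*, the DNA topoisomerase gene, was nearest at 0.98 in 1 of 2 dim sets, a value that reached 1.01 under median centring, and at -0.52 in the other. A further *top2a* set, left out because en-pou5f3 embryos at 3-ss were under the floor, had -1.03 or less, so its sets gave no single direction. Of 31 tubulin, kinesin and dynein genes *dync1li1* passed. The order of the 2 labelled stages was also looked at in wild-type embryos. Of 18 genes listed for the gastrula, 11 had signals at least 2-fold lower at 3-ss and 1 higher, and of 23 genes listed for segmentation, 9 were higher and 3 lower. Over all member probe sets 3.9% were lower and 7.17% higher. The lists were chosen with earlier results of these data known, so this is no independent check, and it cannot give the exact stages.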

How the data were processed

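Whole zebrafish embryos were measured on 4 Affymetrix zebrafish arrays, 1 per genotype and stage. The deposited values are MAS5 signal intensity values on a linear scale, which the authors made out of the scans of single probes, correcting the background and scaling each array; the version of MAS5 is not given in the sources used here. The scaling fixes the mean of each array, so that a change shared by most genes would not be seen, and dim signals are the least certain. The authors' own log ratios and change calls were not used.

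Log2 ratios, stage differences and classes were computed from these signals in Python 3.11.15 (numpy 2.4.6, pandas 2.3.3), and figures were made in matplotlib 3.10.9. The class rule was run on simulated signals with 200 changed probe sets, all well above the floor and with the same noise at every signal. Turning from higher to lower was not simulated. This run therefore does not show how the rule behaves for dim probe sets, whose spread was larger in the data. Of the 10100 members, 7740 have 1 gene symbol in the platform annotation and 103 were named from the study's tables; 91 have several symbols, and 2166 have no name. Named genes were the 10 largest stage differences of each class (by summed ratios for holding), the 4 largest of each gene list with any past 2-fold, and genes that the study names, 1 probe set each; those described in the text are a selection of these, made after their values were seen. The members and the 29 lists were chosen with earlier results of these data known. No column was left unmapped (0). Promoter sequences were not used here, so a planned motif search was not run.

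The alternatives were other floors, signals under the floor set to it, median centring, quantile normalization, the floor added to every signal, thresholds of 1.5-fold and 3-fold, no shared probe sets, the brightest or the mean of the probe sets of a gene, and a stricter rule for turning. With 1 array per group no test was made and no replicate could be left out.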

Additional observations from a re-analysis of the deposited data

Results flagged for a closer look

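The named genes of the turning classes, with opposite ratios of more than 1.5-fold at both stages, were picked out. Their en-pou5f3 array stood on opposite sides of the wild-type array at the 2 stages. With 1 array per group the difference was not tested. Named genes with opposite ratios of which 1 lay within 1.5-fold of wild-type, such as *tbx2b* and *prdm14*, are not listed here. Lower in en-pou5f3 embryos at 3-ss and higher at 90% epiboly were *her2* (stage difference -2.12), *pdha1a* (-1.93), *hoxa2b* (-1.89), *gcnt4a* (-1.83), *cog6* (-1.76), *pax6a* (-1.76), *insb* (-1.70), *echs1* (-1.68), *lad1* (-1.67), *fhl3b* (-1.64) and *her15.2* (-1.51). Higher in en-pou5f3 embryos at 3-ss and lower at 90% epiboly were *wu:fe14d06* (4.58), *c6.2* (2.65), *arg2* (2.14), *wu:fe38h02* (2.07), *acap3b* (2.06), *zgc:112966* (2.05), *ogt.1* (1.95), *ttc4* (1.85), *sgms1a* (1.80) and *lgals3b* (1.74).

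A signal also stood out among the control probe sets that the members leave out. The set AFFX-Dr-U43284-1_s_at measured 14534 in en-pou5f3 and 1670.4 in wild-type embryos at 3-ss, and 5531 in en-pou5f3 and 109.7 in wild-type embryos at 90% epiboly. Its log2 ratios were 3.12 at 3-ss and 5.66 at 90% epiboly, a stage difference of -2.53. The files do not name its target.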

How the results depend on the processing

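Centring, quantile normalization and leaving out shared probe sets kept every count within 1.5 times its value, and under centring, quantile normalization and the floor added, the only settings run for single probe sets, no named stage difference past 2-fold changed its sign. The brightest probe set of a gene can have the other sign than the named one, as in *laptm4b* (-0.21 against 1.78), *ogt.1* (-0.18 against 1.95) and *elavl3* (-1.56 against 1.75). Floors and thresholds moved the counts. The 235 larger and 215 smaller ratios at 3-ss became 823 and 651 with the floor at the control median, 115 and 107 with the floor added to every signal, 891 and 800 at 1.5-fold, 50 and 47 at 3-fold, 131 and 134 by brightest probe sets and 89 and 94 with a floor of 100. With signals under the floor set to it, the larger ratios came to 364. In the same order of settings, fading lower (111) became 319, 66, 399, 26, 69 and 45, and fading higher (92) became 276, 47, 379, 21, 60 and 40. Growing lower (98) became 246, 52, 396, 12, 57 and 46, and growing higher (99) became 333, 39, 467, 9, 53 and 35; with signals set to the floor they came to 153 and 166. Turning probe sets that were higher at 3-ss (25) became 171 with the low floor, 44 with signals set to the floor, 10 with it added, 15 at 3-fold, 9 by brightest probe sets, 9 with a floor of 100 and 1 when both ratios had to pass 2-fold. Those lower at 3-ss (25) became 129 with the low floor, 8 with the floor added, 14 at 3-fold, 8 with a floor of 100 and 0 under the 2-fold rule. Holding probe sets (52) became 126 with the low floor and 31 with a floor of 100. The proneural list median (-0.60) became -0.19 with signals set to the floor and -0.25 with the mean of probe sets, and the Notch-independent her median (-0.40) became -0.04 with signals set to the floor. Other lists then lay farther from 0 than the proneural one, such as neural crest (-0.27) by mean probe sets and gastrula (0.23) with signals set to the floor. Of 173 named probe sets, 7 fell under 2-fold with the floor added (*fhl3b*, *mafbb*, *hoxc3a*, *neurod4*, *foxd3*, *junba* and *dync1li1*).

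No paired analysis was possible because each group has 1 array. The spread between probe sets holds no variation between embryos or clutches, so the counts cannot be set against biological error. Near the floor a small shift of 1 signal can move a ratio past 2-fold, which limits what the dim probe sets show.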

Other observations

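Of the 5402 probe sets that the floor left out, 746 were under it on 1 array only, and for these the stage difference can be given as a bound by setting that signal to 32.4. The bound passed 2-fold for 61 probe sets with a larger and 59 with a smaller ratio at 3-ss. At 90% epiboly the array under the floor was that of en-pou5f3 embryos in 38 and of wild-type embryos in 34. At 3-ss it was that of en-pou5f3 embryos in 25 and of wild-type embryos in 23. How all 746 divide over the arrays is not given here. *otx2a*, an Otx gene of the fore- and midbrain, had signals of 48.5 in en-pou5f3 and 112.6 in wild-type embryos at 3-ss, and 6.96 in en-pou5f3 and 261 in wild-type embryos at 90% epiboly, which puts its stage difference at 1.79 or more. *pnx*, a homeobox gene of early neural progenitors, had 82.3 in en-pou5f3 and 162 in wild-type embryos at 3-ss, and 28.5 in en-pou5f3 and 303 in wild-type embryos at 90% epiboly, a difference of 2.25 or more. *irx1a*, an Iroquois gene, had a bound of 1.64. All 3 would join the fading lower genes, since the en-pou5f3 signal under the floor belonged to 90% epiboly.

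*kif5aa*, a kinesin gene, fell short of the floor on the wild-type array at 3-ss alone, with 259 in en-pou5f3 and 11.2 in wild-type embryos at 3-ss, and 369 in en-pou5f3 and 172 in wild-type embryos at 90% epiboly. *sox32*, the endoderm gene casanova, had 82.5 in en-pou5f3 and 22.1 in wild-type embryos at 3-ss, against equal signals of 737 in en-pou5f3 and 735 in wild-type embryos at 90% epiboly, a difference of 1.34 or more. *her3* and *hesx1*, whose signals were under the floor on both en-pou5f3 arrays, have no stage difference here.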
